A study of Homo sapiens with 4 samples.

Results

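The nuclear genes that encode the subunits of respiratory chain complexes I to IV, the ATP synthase (complex V) and cytochrome c were compared in the MDA-MB-231 line between MGH-CP1 and vehicle. Members were the protein-coding genes whose symbols carry the names of these subunits (NDUFA, NDUFB, NDUFC, NDUFS and NDUFV with a number, SDHA to SDHD, UQCR, COX4 to COX8, and ATP5 with a letter, plus CYC1 and CYCS). The rule found 95 of the 48162 listed genes. Of these, 39 were counted with complex I, 5 with complex II, 10 with complex III, 20 with complex IV and 20 with complex V. The remaining 1 is cytochrome c. By their symbols COX7A2L was counted with complex IV and ATP5S and ATP5SL with complex V, though they are related genes and not subunits. NDUFA4 and its relative NDUFA4L2 were counted with complex IV, where the NDUFA4 protein is now placed.

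MDA-MB-231 is a human breast cancer line, and MGH-CP1 binds the lipid pocket of TEAD transcription factors and blocks their palmitoylation. The Control group received vehicle control and the other group MGH-CP1 for 24 h, with 2 libraries in each. The sample labels give 10 µM, and the study's methods give the same number with mM as the unit. Nothing states that the libraries of a group came from separate cultures, so the p-values measure only the spread between these libraries, and all 4 are of 1 cell line. VIM, CD44, MSN and AXL, fixed as high markers of the line, had mean levels over the 4 libraries of 210 to 338 FPKM (fragments scaled to gene length and to the library's total). Of these, AXL was lower with MGH-CP1, at 274 and 293 FPKM in Control and 149 and 187 FPKM in MGH-CP1. ESR1 and PGR had 0 to 4 fragments per library, and PTPRC, a leukocyte marker, 0 to 3. CDH1 stayed under 1 FPKM. EPCAM, at 12.4 to 16.4 FPKM, and ERBB2, at 24.7 to 28.4 FPKM, were fixed as low markers but were detected in every library. Fragment totals were 25455533 and 25508824 in Control and 17997221 and 17577930 in MGH-CP1, so the treated libraries were shallower.

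The respiratory chain carries electrons from NADH (through complex I) and succinate (through complex II) to ubiquinone, then through complex III and cytochrome c to complex IV, which reduces oxygen. Complexes I, III and IV pump protons, and complex V uses the gradient to make ATP. Complexes I, III, IV and V are built from subunits of both genomes: the mitochondrial genome encodes membrane core subunits, while the nuclear genome encodes the remaining core subunits, the accessory subunits and all of complex II. NRF1 and the ETS factor GABP are known activators of many of the nuclear genes.

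To show the regulatory sequence of the genes on which the results turn, the 250 bases before the annotated start (RefSeq, GRCh38.p14, 5′ to 3′ along the gene) are given for the complex I gene with the largest log2 fold change on the log2(FPKM + 1) scale, a complex IV gene that rose, and 3 of the genes that fell. Capitals mark the ETS letters CCGGAAG and the NRF1 core CATGCGC, searched on both strands.
NDUFA1 (chrX:119871582-119871831, plus strand): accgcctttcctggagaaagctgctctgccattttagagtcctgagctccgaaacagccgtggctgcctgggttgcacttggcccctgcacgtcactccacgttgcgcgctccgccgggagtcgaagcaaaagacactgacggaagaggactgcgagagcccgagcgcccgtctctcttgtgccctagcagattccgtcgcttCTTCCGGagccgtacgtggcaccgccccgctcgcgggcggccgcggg
COX5B (chr2:97645812-97646061, plus strand): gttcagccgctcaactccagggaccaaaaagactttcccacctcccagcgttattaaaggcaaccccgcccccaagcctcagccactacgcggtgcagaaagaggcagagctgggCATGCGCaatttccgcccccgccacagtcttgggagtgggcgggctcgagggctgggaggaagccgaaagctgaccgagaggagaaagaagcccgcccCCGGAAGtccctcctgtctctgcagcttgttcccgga
UQCRFS1 (chr19:29213152-29213401, minus strand): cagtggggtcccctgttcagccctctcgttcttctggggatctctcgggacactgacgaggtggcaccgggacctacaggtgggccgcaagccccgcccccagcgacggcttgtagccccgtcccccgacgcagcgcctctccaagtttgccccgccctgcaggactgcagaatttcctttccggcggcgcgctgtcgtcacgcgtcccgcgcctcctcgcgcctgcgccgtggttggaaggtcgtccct
CYCS (chr7:25125261-25125510, minus strand): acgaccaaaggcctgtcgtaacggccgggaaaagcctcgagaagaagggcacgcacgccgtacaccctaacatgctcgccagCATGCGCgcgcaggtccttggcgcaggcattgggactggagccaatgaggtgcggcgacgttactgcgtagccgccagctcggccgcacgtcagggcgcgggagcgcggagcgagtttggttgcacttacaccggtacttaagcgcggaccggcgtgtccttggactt
ATP5G1 (chr17:48892537-48892786, plus strand): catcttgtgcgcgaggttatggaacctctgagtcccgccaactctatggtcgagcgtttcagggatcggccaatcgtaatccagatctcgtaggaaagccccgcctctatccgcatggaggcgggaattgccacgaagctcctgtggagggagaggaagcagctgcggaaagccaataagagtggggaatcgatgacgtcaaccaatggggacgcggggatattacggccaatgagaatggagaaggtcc
NDUFA1 and COX5B each hold 1 ETS match, COX5B and CYCS each hold 1 NRF1 core, and UQCRFS1 and ATP5G1 hold neither. The matches do not overlap each other. Of 86 members, leaving out second identifiers, retrocopies and read-through loci, 68 were matched in the promoter table. ETS letters stood on either strand in 17 of them (25%), against 10.2% of all 27305 genes of the table. By call, 9 of 23 matched members that rose, 0 of 3 that fell and 7 of 33 that were not called held them. The NRF1 core stood in 15 of the 68 (22.1%) against 4.59% of all genes, and in 3 of 23, 1 of 3 and 9 of 33 by call. The core joined with its own reverse complement in a palindrome of 10 bases stood in 3 of the 68 (4.41%) against 1.28%. The E-box CACGTG, a palindrome, stood in 6 of the 68 (8.82%) against 7.73%. These are matches of letters in a window. They do not show binding. The motifs and the promoters printed were chosen after the members' values were seen. The palindrome was the NRF1 motif searched first, and the core, which more members hold, was taken up afterwards.

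More members rose than fell with MGH-CP1. Of the 95 members, 74 had a mean of at least 1 FPKM and were tested, and 27 rose, 4 fell and 43 were not called at an adjusted p under 0.05 (limma on log2(FPKM + 1), Benjamini-Hochberg over all 12080 genes tested). This was 36.5% higher and 5.41% lower, beside 27.1% higher and 23.8% lower among all genes tested (50.8% in either direction). The median log2 fold change of the members was 0.13, and that of all genes tested 0.01. The 4 that fell were CYCS, ATP5G1, UQCRFS1 and NDUFB9: 1 each from complexes I, III and V, and cytochrome c. Both MGH-CP1 libraries lay above both Control libraries for 43 of the 74 and below them for 13, beside 39.8% above and 37.4% below among all genes tested. In these bulk libraries, fewer cells with a transcript and less of it per cell cannot be told apart.

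A feature of the libraries touches every count of rises. Many members are short, and Control 1 gave lower values than Control 2 for most members, short or long. Among the 20 tested members under 1000 bases, Control 2 exceeded Control 1 in 19, by a median of 0.23 on the log2 scale, while the 311 protein-coding genes of that length differed by a median of 0.09. Among the 54 tested members of 1000 bases or more, Control 2 exceeded Control 1 in 42. Without Control 1 the members' median log2 fold change was 0.096, and their share of rises was close to that of all genes in the same fit. After a smooth trend on gene length was removed from every library, an alternative added after the data were seen, 17 rose (23%) and 10 fell (13.5%). Among all genes tested 25.2% then rose and 25.2% fell, so the members' share of rises was no longer above that of all genes. The part of length in the rises was not otherwise tested.

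**Figure D1:**
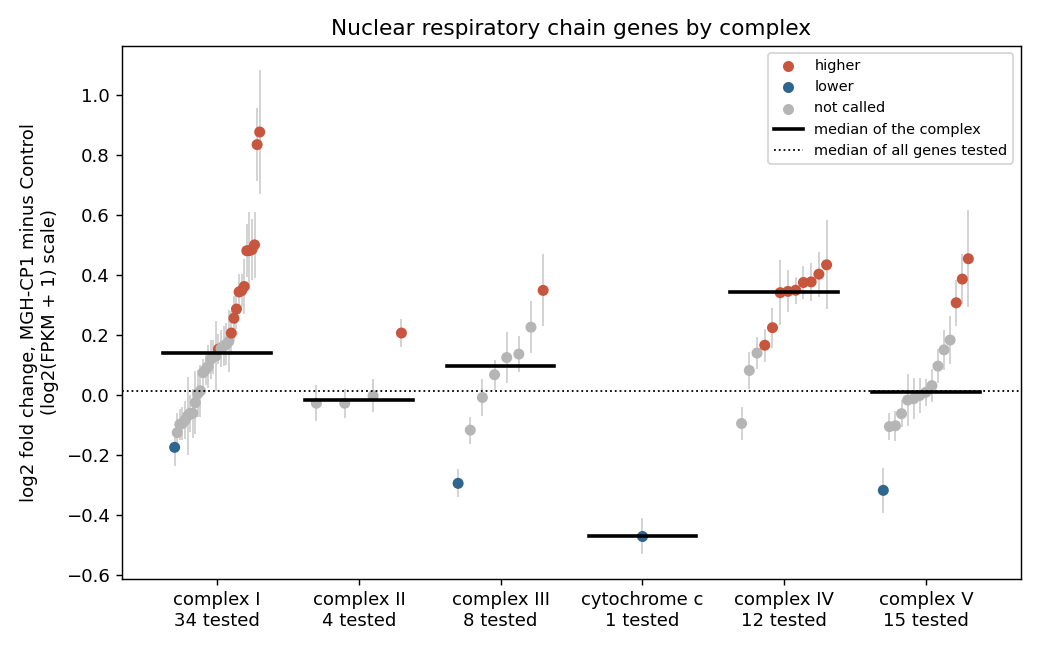
Log2 fold change of each tested nuclear respiratory chain gene (y axis, MGH-CP1 minus Control on the log2(FPKM + 1) scale), grouped by complex on the x axis. Points are genes with their SE, bars the median of each complex and the dotted line the median of all genes tested. Complex IV has the highest median (0.34), those of complexes II and V lie near 0, and CYCS lies lowest at -0.47.

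Complex IV, cytochrome c oxidase, had the highest share of rises. Of its 12 tested members, 9 rose (75%) and none fell, beside 27.1% and 23.8% of all genes tested. The median log2 fold change of the 12 was 0.34 (SD 0.09 over the 4 pairs of libraries). At an unadjusted p under 0.05 10 were higher and 0 lower, and limma voom on recovered fragments gave 8 and 0. The summed FPKM of the complex was 574 and 636 in Control and 748 and 740 in MGH-CP1, a mean 23% higher. The groups did not overlap, and the exact two-sided permutation test gave p = 0.333, the smallest that 2 libraries against 2 allow.

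COX5B, an accessory subunit that binds zinc on the matrix side, was at 77.4 and 91.5 FPKM in Control and 111 and 112 FPKM in MGH-CP1. Its log2 fold change was 0.40 ± 0.07 (SE, limma adjusted p = 0.00277). COX7A2, the ubiquitous form of a small membrane subunit, had close libraries within each group. It was at 84.8 and 86.3 FPKM in Control against 109 and 109 FPKM in MGH-CP1, a log2 fold change of 0.35 ± 0.04 (limma adjusted p = 0.000467). COX6C had 75.4 and 81.3 FPKM against 104 and 99.4 FPKM. In these 3 genes every treated library lay above every Control library.

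COX7C, another small membrane subunit, rose from 59.2 and 66.4 FPKM to 83.5 and 80 FPKM. COX6B1, which faces the intermembrane space, rose from 99.9 and 116 FPKM to 137 and 137 FPKM. COX8A had the largest estimate in the complex and the largest SE. It was at 15 and 18.2 FPKM in Control and 19 and 26.9 FPKM in MGH-CP1, with a log2 fold change of 0.43 ± 0.15 (limma adjusted p = 0.0402). Without Control 1 or without MGH-CP1 2 this call was lost.

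COX4I1, the largest nuclear-encoded subunit and a site of regulation by ATP, had the smallest estimate of the 9 that rose. Its FPKM were 29.8 and 31.9 in Control and 34.8 and 34.6 in MGH-CP1, a log2 fold change of 0.17 ± 0.05 (limma adjusted p = 0.0356), and the call was lost in 3 of the 4 fits that left out 1 library, those without Control 1, MGH-CP1 1 or MGH-CP1 2. NDUFA4 rose from 27.7 and 31 FPKM to 35.5 and 33.4 FPKM (log2 fold change 0.22 ± 0.07), a call lost without Control 1 and without MGH-CP1 1. COX5A, which sits beside COX4 in the early assembly of the enzyme, had 54.1 and 57.6 FPKM against 53.4 and 51 FPKM and was not called (log2 fold change -0.10 ± 0.05, limma adjusted p = 0.174). COX7B and COX7A2L, the last a factor of supercomplex assembly, were not called either.

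The 6 complex IV genes under 1000 bases all rose, and 3 of the 6 longer ones did. Among all tested protein-coding genes under 1000 bases 41.8% rose. Without Control 1 fewer of the 12 passed the threshold, and the median of the complex was the lowest of the fits that left out 1 library. With the length trend removed 6 of 12 rose (50%), beside 25.2% of all genes tested, while COX5A fell (log2 fold change -0.19, limma adjusted p = 0.0119).

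**Figure D2:**
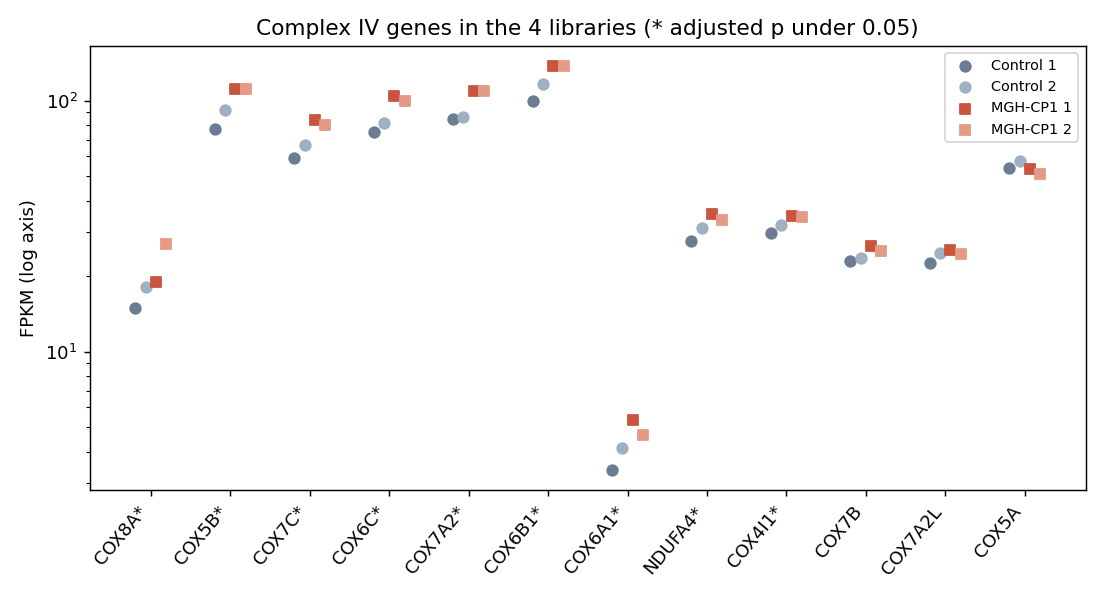
FPKM (y axis, log scale) of the 12 tested complex IV genes (x axis, in order of log2 fold change) in each of the 4 libraries. Circles are Control and squares MGH-CP1 libraries, and an asterisk marks an adjusted p under 0.05. Both squares lie above both circles for 10 of the 12 genes, and COX5A is the one with both squares below. Among all genes tested, 39.8% had both MGH-CP1 libraries above both Control libraries.

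In complex I the rises lay mostly among accessory subunits of the membrane arm. NADH is oxidized in the N module, ubiquinone is reduced in the Q module, and protons are pumped by the membrane arm, whose core subunits are mitochondrially encoded. Of 20 tested nuclear members of the membrane arm, 11 rose (55%) and 1 fell (5%), with a median log2 fold change of 0.23. Of 14 tested members of the N and Q modules, 2 rose (14.3%) and none fell, with a median of 0.01. The counts were 3 and 0 at an unadjusted p under 0.05 and also by limma voom. The difference between the arms was not tested. Over the whole complex 13 of 34 rose (38.2%) and 1 fell (2.94%), beside 27.1% and 23.8% of all genes tested. The summed FPKM was 1013 and 1096 in Control and 1208 and 1172 in MGH-CP1 (12.8% higher in the mean, exact permutation p = 0.333).

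Of the 7 nuclear core subunits, which carry the flavin and the iron-sulfur clusters or frame the quinone site, only NDUFS8 rose. It was at 35.1 and 35.6 FPKM in Control and 38.7 and 40.1 FPKM in MGH-CP1 (log2 fold change 0.15 ± 0.05, limma adjusted p = 0.0348), and the call was lost in each fit that left out 1 library. NDUFV1, which binds the flavin and NADH, had 53.9 and 62.2 FPKM against 63.8 and 66.6 FPKM and was not called (limma adjusted p = 0.0778). NDUFS1, with several iron-sulfur clusters, had 23.4 and 24.1 FPKM against 21.8 and 22.5 FPKM (log2 fold change -0.10 ± 0.05). The remaining N or Q module rise was NDUFS4, an accessory subunit needed for a stable N module, from 44.3 and 46.9 FPKM to 59.2 and 52.6 FPKM (limma adjusted p = 0.00777), a call lost without MGH-CP1 1.

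NDUFA1, a small membrane subunit encoded on the X chromosome (chrX:119005450-119010625, hg19), had the largest estimate among the members on the log2(FPKM + 1) scale, while by limma voom and by the change in mean FPKM that of NDUFA13 was larger. NDUFA1 had values of 20.2 and 35.8 FPKM in Control and 48.9 and 51.7 FPKM in MGH-CP1, a log2 fold change of 0.88 ± 0.21 (limma adjusted p = 0.0085). On the log2(FPKM + 1) scale its 2 Control libraries stood farther apart than for any other tested member. The estimate ran from 0.48 without Control 1 to 1.27 without Control 2. NDUFA13, also called GRIM-19, was at 0.505 and 0.538 FPKM in Control and 1.72 and 1.71 FPKM in MGH-CP1 (log2 fold change 0.83 ± 0.12, and 1.68 by limma voom against 0.89 for NDUFA1). Its mean passed the minimum of 1 FPKM through the MGH-CP1 libraries alone, so its call is no support, and it was the only tested member with a group mean under that minimum. Without it, 26 members rose, 12 of them in complex I and 10 in the membrane arm (counts added after the values were seen). The level of NDUFA13 rested on 15 fragments in Control 1, and the locus overlaps YJEFN3 on the same strand and TSSK6 on the opposite strand, so the counting could have divided its fragments.

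NDUFB1 and NDUFB3 rose too, each with Control 1 below Control 2. NDUFB1 was at 8.99 and 11.9 FPKM in Control and 15.2 and 14.9 FPKM in MGH-CP1 (log2 fold change 0.50 ± 0.11). NDUFB3 was at 27.5 and 34 FPKM against 42.2 and 43.9 FPKM (log2 fold change 0.48 ± 0.09). NDUFB4 and NDUFB6, both over 1000 bases long, gave closer Control libraries. NDUFB4 went from 34.3 and 33.5 FPKM to 44.9 and 41.8 FPKM, and NDUFB6 from 21.5 and 23.3 FPKM to 28.6 and 28.6 FPKM. Both calls were kept in all 4 fits that left out 1 library.

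NDUFB9, an accessory subunit of the same arm, was the only complex I gene to fall. It was at 10.3 and 10.4 FPKM in Control and 9.14 and 8.97 FPKM in MGH-CP1, a log2 fold change of -0.18 ± 0.06 (limma adjusted p = 0.0497), and the call was lost in each fit that left out 1 library. NDUFS5, the most abundant complex I transcript per length, had 215 and 216 FPKM against 232 and 221 FPKM and was not called. Without Control 1 fewer genes of each arm rose, and the membrane arm's share of rises stayed above that of all genes in that fit. With the length trend removed, 9 of the membrane arm (45%) and none of the N and Q modules rose. Of the N and Q modules 3 then fell (21.4%). Among all genes tested 25.2% rose and 25.2% fell with that trend removed.

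**Figure D3:**
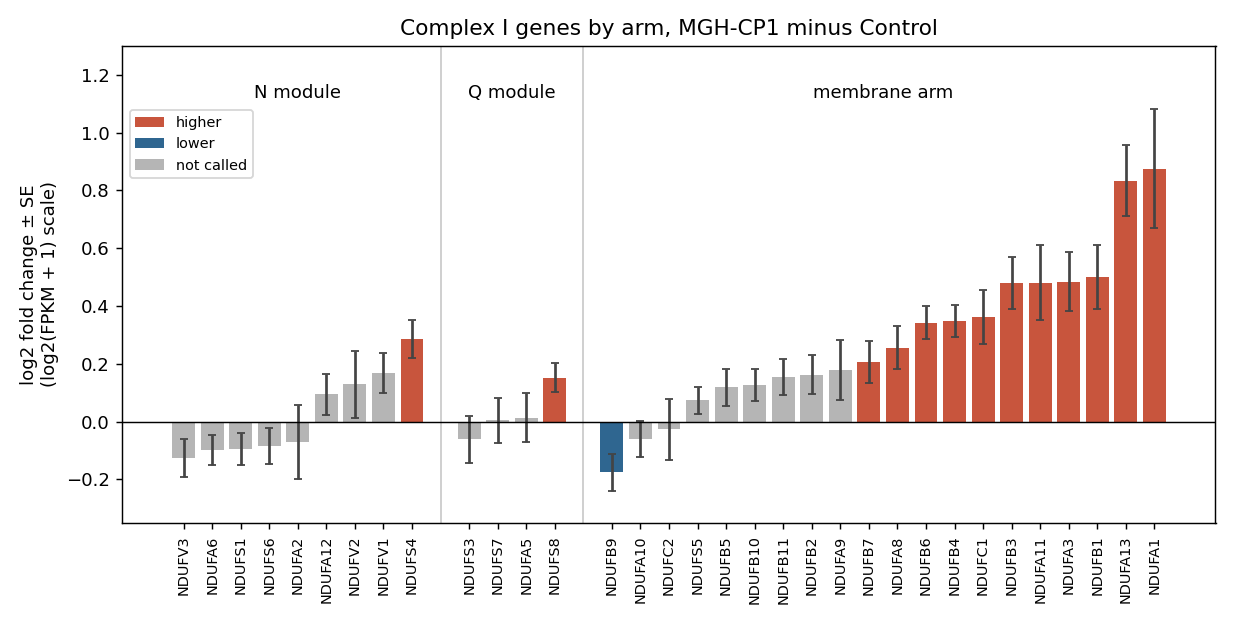
Log2 fold change with SE (y axis, MGH-CP1 minus Control on the log2(FPKM + 1) scale) of the tested complex I genes (x axis), by module, with 1 gene of the 34 not drawn. Orange bars passed the test as higher, blue as lower and grey were not called: 11 of the 20 membrane arm genes are orange, against 2 genes of the N and Q modules.

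Complex II, succinate dehydrogenase, is wholly nuclear-encoded and also works in the citric acid cycle. SDHA, the flavoprotein, had 80.7 and 84.9 FPKM in Control and 81.6 and 80.7 FPKM in MGH-CP1 (log2 fold change -0.03 ± 0.05, limma adjusted p = 0.652). SDHB, the iron-sulfur subunit, had 61.1 and 59.3 FPKM against 62.2 and 56 FPKM. SDHD, a membrane anchor, had 36.1 and 37.3 FPKM against 35.5 and 37.8 FPKM. In these 3 the groups overlapped. SDHC, the other membrane anchor, rose from 54.4 and 55.4 FPKM to 64.3 and 62.7 FPKM (log2 fold change 0.21 ± 0.05, limma adjusted p = 0.00758), and the call was lost without MGH-CP1 1 and with the length trend removed (adjusted p = 0.0562). The sum over the complex differed by 2.45%.

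Complex III passes electrons from ubiquinol through cytochrome b and the Rieske iron-sulfur protein to cytochrome c1. UQCRFS1, the Rieske protein (chr19:29698173-29704448, hg19), fell from 79.2 and 80.9 FPKM to 65.9 and 64.2 FPKM, a log2 fold change of -0.30 ± 0.05 (limma adjusted p = 0.00127). Both treated libraries were lower, and the estimate stayed between -0.31 and -0.28 when any 1 library was left out. CYC1, cytochrome c1, had 86.2 and 87.9 FPKM in Control and 80.1 and 80.1 FPKM in MGH-CP1 and missed the threshold (log2 fold change -0.12 ± 0.05, limma adjusted p = 0.0595). With the length trend removed it passed (adjusted p = 0.00896).

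UQCRC1, a core protein of the matrix side, had 91.2 and 87.1 FPKM against 95.2 and 91.6 FPKM and was not called. UQCRQ, a small accessory subunit, rose from 16.4 and 21 FPKM to 26.3 and 21.7 FPKM (log2 fold change 0.35 ± 0.12, limma adjusted p = 0.0414). Its groups lay close together, and the call was lost without Control 1 and without MGH-CP1 1. UQCRH, the hinge protein, had 123 and 152 FPKM against 160 and 160 FPKM (limma adjusted p = 0.0616). Over the complex 1 of 8 tested members rose (12.5%) and 1 fell (12.5%), beside 27.1% and 23.8% of all genes tested. The summed FPKM overlapped between the groups (477 and 511 against 517 and 500).

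CYCS, the soluble carrier between complexes III and IV and also a trigger of apoptosis once released, had the largest fall. Its locus (chr7:25159710-25164980, hg19) was at 40.3 and 43.8 FPKM in Control and 29.2 and 30.9 FPKM in MGH-CP1, with no overlap. The mean was 28.6% lower in MGH-CP1, with a log2 fold change of -0.47 ± 0.06 (limma adjusted p = 0.000454). The call held in all 4 fits that left out 1 library, and the estimate with the length trend removed was also -0.47.

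The 3 tested genes of the complex V catalytic head that are named here were not called. ATP5B, the catalytic beta subunit and the most abundant member per length, had 325 and 335 FPKM in Control and 314 and 318 FPKM in MGH-CP1 (log2 fold change -0.06 ± 0.05, limma adjusted p = 0.277). ATP5A1, the alpha subunit, had 106 and 109 FPKM against 101 and 98.5 FPKM (limma adjusted p = 0.0855). ATP5C1, the rotating gamma subunit, had 146 and 148 FPKM against 150 and 145 FPKM. At an unadjusted p under 0.05 1 of the 3 was lower, and limma voom also called 1 lower. Of the 15 tested members 3 rose (20%) and 1 fell (6.67%), beside 27.1% and 23.8% of all genes tested. The 15 include ATP5S and ATP5SL, which are not subunits and were not called. The median log2 fold change was 0.01, and the summed FPKM overlapped (852 and 890 against 870 and 858).

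The 3 that rose were small subunits. ATP5E, the epsilon subunit of the central stalk, rose from 23.5 and 28.3 FPKM to 34.7 and 33.3 FPKM (log2 fold change 0.39 ± 0.08, limma adjusted p = 0.00557). ATP5H, subunit d of the peripheral stalk, rose from 5.31 and 5.82 FPKM to 7.05 and 7.17 FPKM. ATP5J2, subunit f of the membrane part, was at 7.21 and 11.1 FPKM against 13.6 and 11.8 FPKM, and its call was lost without Control 1 and without either MGH-CP1 library. Without Control 1 only ATP5E of the 3 still passed.

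The summed FPKM of complex IV relative to complex V moved from 0.673 and 0.714 in Control to 0.859 and 0.863 in MGH-CP1, and the ratio of complex V to complex I went from 0.841 and 0.812 to 0.721 and 0.732. Neither ratio overlapped between the groups (exact permutation p = 0.333 each, the smallest possible).

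Isoform pairs were examined for swaps. Several subunits have a form used in most tissues and a second form used in muscle, lung, testis or hypoxia. No swap was detectable in complex IV. COX4I2, the hypoxia- and lung-associated partner of COX4I1, had 0 fragments in every library, which allows at most 0.532 to 0.712% of the pair's summed FPKM when 3 fragments are taken as the limit (counting error only). COX6A2, the heart and muscle form, also had 0 fragments in every library, against 63 to 81 for its partner COX6A1. By the same limit of 3 fragments this allows at most 3.98 to 5.12% of that pair, a looser limit than for COX4I2. COX6A1 was among the complex IV rises, at 3.38 and 4.14 FPKM in Control and 5.36 and 4.67 FPKM in MGH-CP1. Its log2 fold change was 0.34 ± 0.11 (limma adjusted p = 0.0292), and limma voom did not call it (adjusted p = 0.143). The estimate ran from 0.22 to 0.46 when 1 library was left out. NDUFA4L2, the hypoxia-inducible relative of NDUFA4, had 2 and 0 fragments in Control and 3 and 1 in MGH-CP1, against 1249 to 1685 for NDUFA4.

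The testis-associated COX6B2 had 1 and 2 fragments in Control and 3 and 8 in MGH-CP1, at most 0.159% of its pair with COX6B1. COX7A1, the muscle form, had 10 and 7 fragments against 6 and 1, at most 0.604% beside COX7A2. COX8C had 0 in 3 libraries and 3 fragments in MGH-CP1 2. COX7B2 was the least rare, with 5 and 22 fragments in Control and 10 and 15 in MGH-CP1, or 1.37 to 5.56% of its pair with COX7B, and its groups overlapped. UQCRHL, a near-identical copy of UQCRH listed as a pseudogene and matched by its identifier, held 0.596 to 1.49% of that pair, and reads can be divided between such copies.

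The c subunit of complex V forms the membrane ring of the enzyme, and its identical mature protein is encoded by 3 genes with different import sequences. ATP5G1 made up 25.6 and 27.1% of their summed FPKM in Control and 21.6 and 20.5% in MGH-CP1. ATP5G3 made up 24.7 and 26.3% and then 29.1 and 29.6%, and ATP5G2 46.5 to 49.9% throughout. The shares of ATP5G1 and ATP5G3 did not overlap between the groups (exact permutation p = 0.333 each, the smallest possible). ATP5G1 was above ATP5G3 in both Control libraries, by less than the spread between those libraries (SD 1.1 and 1.18 percentage points), and below it in both MGH-CP1 libraries. ATP5G1 (chr17:46970127-46973233, hg19) fell from 18.5 and 21.5 FPKM to 15.8 and 15.8 FPKM, a log2 fold change of -0.32 ± 0.08 (limma adjusted p = 0.00876). ATP5G3 was at 17.9 and 20.9 FPKM against 21.3 and 22.9 FPKM and was not called (limma adjusted p = 0.0894).

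**Figure D4:**
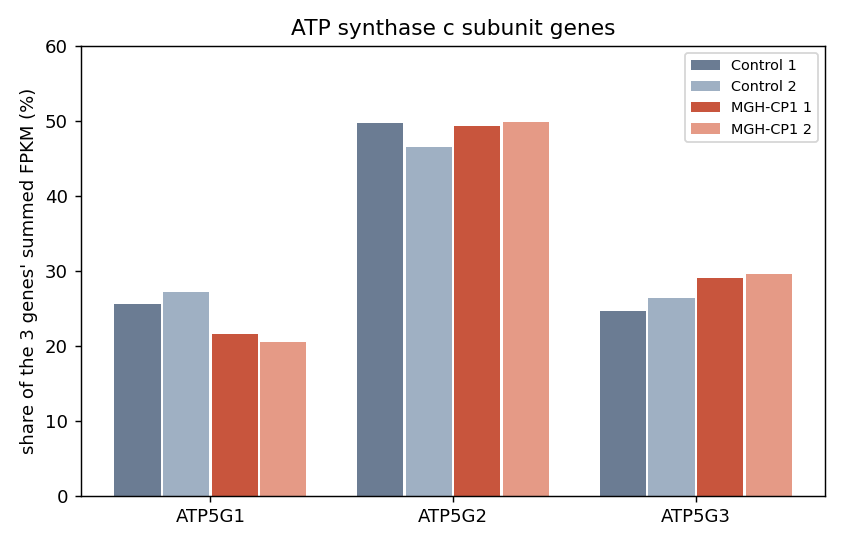
Share of each c subunit gene in the summed FPKM of the 3 genes (y axis, percent) in the 4 libraries (bars, 2 Control and 2 MGH-CP1). ATP5G1 goes from 25.6 and 27.1% to 21.6 and 20.5%, ATP5G3 goes from 24.7 and 26.3% to 29.1 and 29.6%, and ATP5G2 overlaps between the groups.

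All 13 subunits encoded in the mitochondrial genome rose, while among all genes tested 27.1% rose and 23.8% fell. Their median log2 fold change was 1.93, beside 0.13 for the nuclear members. MT-ATP8, the lowest of the 13, rested on 10 and 4 fragments in Control and 11 and 16 in MGH-CP1. MT-CO2, a complex IV core subunit, was at 1016 and 896 FPKM in Control and 4635 and 4393 FPKM in MGH-CP1. The summed mitochondrially encoded over the summed nuclear FPKM went from 3.92 and 3.25 to 11.4 and 11.3 in complex IV. In complex I it went from 2.03 and 1.88 to 5.03 and 4.97, in complex III from 0.344 and 0.301 to 1.18 and 1.23, and in complex V from 0.426 and 0.411 to 1.54 and 1.68. No ratio overlapped between the groups, and each exact permutation p was 0.333, the smallest possible. The RNA had been selected on poly-T beads before sequencing.

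The genes that assemble the complexes were called in both directions. Of 52 listed assembly factors, 48 were tested and 13 rose (27.1%) while 12 fell (25%), near the shares of all genes. On the log2(FPKM + 1) scale COA5, for complex IV, had the largest rise, from 6.18 and 6.97 FPKM to 10.1 and 10.7 FPKM (log2 fold change 0.60 ± 0.08). COA7, also for complex IV, had the largest fall on that scale, from 17.8 and 16.9 FPKM to 11.4 and 11 FPKM (log2 fold change -0.58 ± 0.06). Of the 19 tested factors of complex IV 5 rose and 6 fell, beside 9 rises and no fall among its 12 tested members, which include COX7A2L. Of the 16 tested for complex I, 3 rose and 4 fell.

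Of 4 chain proteins whose symbols lie outside the name rule, 2 rose (50%) and none fell. Among all genes tested 27.1% rose and 23.8% fell. The counts of these 4 were the same at an unadjusted p under 0.05 and by limma voom. ATPIF1, the inhibitor of ATP hydrolysis by complex V, rose from 29.7 and 33.1 FPKM to 40.1 and 41.2 FPKM (limma adjusted p = 0.00191), and USMG5, a small complex V subunit, rose as well. NDUFAB1 and C14orf2 were not called.

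Among 9 regulators of these genes, 6 were tested, and 3 fell (50%) and 1 rose (16.7%), beside 23.8% and 27.1% of all genes tested. NRF1 fell from 6.84 and 7.51 FPKM to 4.95 and 5.55 FPKM (log2 fold change -0.39 ± 0.09, limma adjusted p = 0.00628). PPRC1, a coactivator related to PGC-1, fell from 18.9 and 19.8 FPKM to 12.5 and 13.9 FPKM (log2 fold change -0.52 ± 0.07). GABPB1, a GABP subunit, fell from 11.9 and 10.3 FPKM to 8.66 and 9.68 FPKM (limma adjusted p = 0.0447). ESRRA, a nuclear receptor that acts on mitochondrial genes, rose from 19.3 and 22.2 FPKM to 25.3 and 27.8 FPKM. GABPA and YY1 were not called. PPARGC1A, PGC-1 alpha itself, stood below the mean FPKM minimum at 0.727 and 0.633 FPKM in Control and 1.18 and 1.22 FPKM in MGH-CP1 and was not tested. PPARGC1B went the other way, at 0.461 and 0.412 FPKM in Control and 0.242 and 0.21 FPKM in MGH-CP1. It was not tested either, nor was ESRRG, with 2 to 3 fragments per library.

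Gene length was related to the fold change among the members. The tested members under 1000 bases gave 13 rises in 20 and no fall (14 and 0 at an unadjusted p under 0.05, 13 and 0 by limma voom), with a median log2 fold change of 0.34. Among all 311 tested protein-coding genes of that length 41.8% rose and 12.5% fell, and the median was 0.18. Of the 54 members of 1000 bases or more, 14 rose and 4 fell, with a median of 0.05. Among all genes tested, of any length, 27.1% rose and 23.8% fell. Of the 8 members of 4000 bases or more none rose (0 at an unadjusted p under 0.05, 1 by limma voom), and CYCS among them fell. Spearman's rho between log2 fold change and length was -0.41 over the 74 members and -0.14 over 10941 protein-coding genes; this is across genes that share the same 4 libraries, and genes are not independent replicates.

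**Figure D5:**
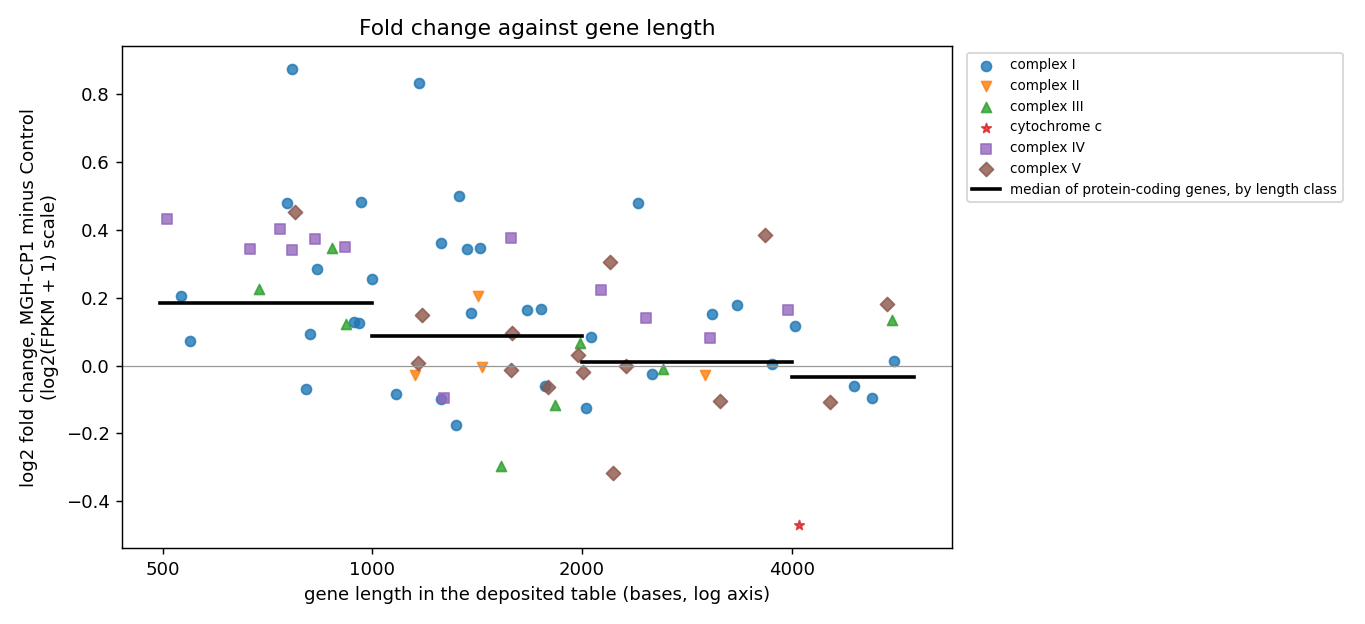
Log2 fold change of the 74 tested members (y axis, MGH-CP1 minus Control on the log2(FPKM + 1) scale) against gene length in bases (x axis, log scale), with symbols for the complexes. Black lines are the medians of all tested protein-coding genes in 4 length classes. The line for genes under 1000 bases lies at 0.18, the members of that length have a median of 0.34, and CYCS lies lowest.

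The 21 members under a mean of 1 FPKM were not tested, and 8 of them had 0 fragments in every library. The 8 are COX4I2, COX6A2, the read-through loci NDUFC2-KCTD14 and ATP5J2-PTCD1, the copy ATP5L2 and the second identifiers of NDUFA7, NDUFB8 and SDHD. The 13 others include 5 subunits that are part of the enzyme in most tissues. NDUFB8 had 5 and 10 fragments in Control and 11 and 17 in MGH-CP1, NDUFA7 had 2 and 9 against 6 and 6, and ATP5O had 45 and 81 against 52 and 60. UQCR11 had 4 and 8 against 16 and 9 under 1 identifier and 1 and 3 against 8 and 3 under its second, and ATP5I had 0 and 3 against 2 and 5. Their loci overlap other listed genes: NDUFB8 lies across HIF1AN and SEC31B, NDUFA7 across RPS28, the second UQCR11 identifier across MBD3, and ATP5I across MYL5. In all, 55 members overlap another listed gene, 45 of them one on the opposite strand and 33 one with a mean of at least 1 FPKM. The strand setting of the counting is not given in the sources used here, so a level near 0 for these genes is a listed value and was not taken as absence of the transcript. The remaining 7 were the rare isoforms above and the retrocopies COX6A1P2 (8 and 9 fragments against 9 and 3) and ATP5EP2 (1 fragment in Control 1 and 0 elsewhere).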

How the data were processed

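Poly-T selected mRNA of 4 MDA-MB-231 libraries (2 Control, 2 MGH-CP1) was sequenced as paired ends. The authors deposited FPKM values of 48162 genes, with symbol, type, coordinates and length. The submitters' processing notes name CASAVA 1.8, STAR and the build hg19. The STAR version, the counting tool, its strand setting and the annotation are not given in the sources used here. Multiplied by length, the FPKM of a library were whole multiples of a common step (100% of values, tolerance 0.01), and this gave fragment numbers and totals of 17577930 to 25508824. Intervals and limits cover counting error only, since PCR copies were not marked.

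The log2(FPKM + 1) of 12080 genes, those whose mean over the 4 libraries reached 1 FPKM, was fitted with limma 3.58.1 in R 4.3.3 (lmFit, eBayes with a trend, two-sided, Benjamini-Hochberg over all genes, threshold 0.05). The fit was tested on simulated data with these library sizes. It recovered most of the genes that had been changed, but the share of its calls that were false was above the threshold of 0.05. The simulation changed far fewer genes than the 6142 of 12080 called here, by 0.5, 1 or 2 log2 units. It also gave all genes the same spread, so its rates do not carry over to these data. Calls near the threshold were read as less certain than their adjusted p states. Fold changes on this scale understate those of low genes. Sums and shares were compared by exact two-sided permutation tests (SciPy 1.17.1). Alternatives changed the pseudocount, filter, scaling, variance model, replicate block, unit and libraries. Promoters came from RefSeq GRCh38.p14, first for symbols with 1 listed start and then, in the values given, for any listed start (a member held a motif if any of its starts did); other coordinates are hg19, and no values were joined across builds.

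Named genes were the core or catalytic subunits, both members of each isoform pair, the 3 largest rises and falls called in complexes I, III, IV and V, members under the filter, and the largest rise and fall of each list; COX6C, COX7A2L, NDUFB3, NDUFB4, NDUFB6, NDUFS5, MT-CO2 and the rest of the regulators were added after their values were seen. Members and lists were chosen with earlier results of these data known. PECAM1 was not analysed here, and 1 core subunit that the rule names is counted but not reported by name.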

Additional observations from a re-analysis of the deposited data

Results flagged for a closer look

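Of the members under the mean FPKM minimum, which entered no test, 13 had fragments. In 2 of the 13, both MGH-CP1 libraries lay above both Control libraries with more than 3 fragments in each treated library. Among all genes tested, 39.8% had both MGH-CP1 libraries above both Control libraries. That share is of genes at or above the minimum and without the fragment condition, so it cannot tell whether 2 of 13 is an excess. NDUFB8, an accessory subunit of the complex I membrane arm, had a mean of 0.64 FPKM in MGH-CP1, with 11 and 17 fragments against 5 and 10 in the deeper Control libraries. UQCR11, a small complex III subunit, had a mean of 0.533 FPKM in MGH-CP1, with 16 and 9 fragments against 4 and 8. In both cases the MGH-CP1 libraries lay above the Control libraries on the FPKM scale, the levels are low for constitutive subunits, and the loci overlap other listed genes.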

How the results depend on the processing

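Across all the settings listed here no named member changed from a call in one direction to a call in the other. A pseudocount of 0.1 kept all 31 calls of members. Voom called 3356 of all 12080 genes higher and 3255 lower. Without a filter on low values, 24878 genes were tested, and 7 of 87 members were higher (8.05%) and 2 lower (2.3%). Among all genes of that fit 9.16% were higher and 7.41% lower. In complexes I, III, IV and V 3, 0, 3 and 0 were higher (3 in the complex I membrane arm, 0 in its N and Q modules) and 0 were lower in complexes I and V. The medians of complexes III and IV were then 0.13 and 0.21, with more low genes included. A mean FPKM of at least 5, quantile normalization, and limma voom on recovered fragments each called 2 complex III genes higher. Median-ratio scaling, quantile normalization and voom each called 2 complex III genes lower, and the last 2 of these settings also called 2 complex V genes lower. Quantile normalization gave medians of 0.0155 for complex II and -0.0459 for the N and Q modules. Limma without a trend called 0 complex III genes higher, 1 gene of the N and Q modules higher and, like voom, 0 complex I genes lower. The cause of these shifts was not tested.

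With the length trend removed, an alternative chosen after seeing the data, 17 members were higher (23%) and 10 lower (13.5%). Among all genes tested 25.2% were higher and 25.2% lower. The median log2 fold changes were 0.0506 for all members, 0.0601 for complex I, -0.0687 for II, 0.00699 for III and 0.21 for IV, and the log2 ratios of summed FPKM were 0.0667, -0.0348, -0.0458, 0.195 and -0.0717 for complexes I to V. Then 0 genes of complexes II and III and of the N and Q modules were higher, while 4, 2, 1 and 2 genes of complexes I, III, IV and V, 3 of them in the N and Q modules, were lower.

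Leaving out each library in turn gave 16 to 29 members higher, the lowest number without MGH-CP1 1, with medians of 0.0789 to 0.145. The ranges of higher calls were 8 to 13 for complex I, 0 to 1 for II, 0 to 2 for III, 5 to 9 for IV, 1 to 4 for V and 0 to 2 for the N and Q modules, and complex I had 0 lower calls in each. Medians ran from 0.0852 to 0.168 for complex I, 0.19 to 0.33 for its membrane arm, -0.0507 to 0.0644 for the N and Q modules, -0.016 to 0.0136 for II, 0.0302 to 0.116 for III and 0.23 to 0.39 for IV. The lowest value for complex IV came without Control 1. Of 27 rises 13 were called in all 4 fits, and of 4 falls 3 were (CYCS, UQCRFS1 and ATP5G1). A left-out library leaves 1 in its group, which is then assumed to vary like the other group.

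With the replicate number as a block, 31 members were higher (41.9%) and 3 lower (4.05%), beside 28.7% and 25.3% of all genes tested. In that fit 2 complex III genes were higher, and 0 complex I genes were lower. The replicate numbers were not taken as pairing the samples. The deviations of same-numbered libraries had a correlation of 0.08 over 12080 genes, and the labels name no shared batch.

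With 2 libraries a group, exact tests of sums and shares cannot pass 0.05. The treated libraries were shallower, and 3 fragments were taken as the limit that a count of 0 allows.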
